A study of Mus musculus with 20 samples.

Results

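The 10 general macrophage markers Adgre1, Csf1r, Cd68, Lyz2, Aif1, Ctss, Laptm5, Mpeg1, Itgam and Fcgr1 were read from an RNA-seq count table of 54532 genes by gene name, and all 10 were present. The table covers 20 libraries in 4 groups of 5: kidney of mice labelled Lxrα-/-, kidney of wild-type mice, liver of mice labelled Lxrα-/-, and liver of wild-type mice. All animals were male with a C57BL/6 background. Nr1h3 encodes Lxrα, an oxysterol-sensing nuclear receptor that is present in macrophages and hepatocytes. The labels name no Cre driver, allele, deleted exon or age. Titles number the labelled knockout mice 1 to 5 and the wild-type mice 1, 3, 4, 5 and 6, and values of a group are given in that order. In both tissues Nr1h3 itself had more counts in the labelled knockout, with 99.4 to 157 against 49.5 to 55.03 CPM (counts scaled by library size) in kidney and 145 to 189 against 85.5 to 120 CPM in liver. Counts of a whole gene do not show which exons they cover, so this does not check the genotype, and the group is called the labelled knockout throughout.

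Tissue macrophages take up dead cells, lipoproteins and microbes, degrade them in lysosomes and survive on signals through the receptor that Csf1r encodes. In liver most of them are Kupffer cells, which line the sinusoids and carry Lxrα as one of the factors that maintain their identity, while kidney macrophages lie between the tubules. The 10 markers cover the cell surface (Csf1r, Adgre1, Itgam, Fcgr1), the lysosome and its proteases (Cd68, Ctss, Laptm5, Lyz2), and the cytoplasm and killing machinery (Mpeg1, Aif1). Several are shared with monocytes, dendritic cells, B cells or neutrophils. All values come from whole tissue, in which fewer cells of a type and less RNA per cell cannot be told apart.

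Total counts ran from 23421561 to 35376342 per library, of which the 10 markers together held 2692 to 9787. Wild-type kidney 3 held 50.8% and wild-type kidney 1 held 7.21% of its counts in mitochondrially encoded genes, outside the 12.6% to 21.1% of the other 8 kidneys. The tests of the markers in kidney and some calls of other lists are also given without both. Kidney levels, sums, ratios and correlations include them. The tissue labels were matched by defining markers: 8 proximal tubule genes summed to 9522 to 13231 CPM in kidneys and 39.3 to 99.9 CPM in livers, and 8 hepatocyte genes to 570 to 1429 CPM in kidneys and 59948 to 119627 CPM in livers.

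Promoter letters are shown for 3 markers, Mpeg1 because it separated the genotypes in liver, and Cd68 and Fcgr1 for comparison. PU.1, the transcription factor required to form macrophages, is known to bind a purine-rich motif whose core is GAGGAA. Each line holds the 250 bases before the start in the RefSeq promoter table for GRCm38.p6, 5′ to 3′ on the strand of the gene, and capitals mark GAGGAA or its reverse complement. The windows are chr19:12460520-12460769 on the plus strand for Mpeg1, chr11:69666171-69666420 on the minus strand for Cd68 and chr3:96293970-96294219 on the minus strand for Fcgr1.
Mpeg1: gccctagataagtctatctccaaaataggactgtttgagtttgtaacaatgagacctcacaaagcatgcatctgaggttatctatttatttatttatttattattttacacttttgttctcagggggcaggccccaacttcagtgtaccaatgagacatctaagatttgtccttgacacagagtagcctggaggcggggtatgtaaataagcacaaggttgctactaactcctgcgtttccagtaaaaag
Cd68: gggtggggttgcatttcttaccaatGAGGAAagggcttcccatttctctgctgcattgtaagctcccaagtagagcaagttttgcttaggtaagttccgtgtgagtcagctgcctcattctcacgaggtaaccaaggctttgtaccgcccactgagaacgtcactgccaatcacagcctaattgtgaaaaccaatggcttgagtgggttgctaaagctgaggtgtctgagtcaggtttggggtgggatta
Fcgr1: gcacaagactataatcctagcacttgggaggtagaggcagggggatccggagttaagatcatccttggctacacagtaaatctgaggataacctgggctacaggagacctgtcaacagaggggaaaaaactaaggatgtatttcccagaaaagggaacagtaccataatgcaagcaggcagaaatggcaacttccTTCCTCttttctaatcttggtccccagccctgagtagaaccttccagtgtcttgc
Of the 10 markers, 8 had an entry in that table, and Csf1r and Adgre1 did not. GAGGAA occurred on either strand in 6 of the 8 windows, those of Aif1, Cd68, Ctss, Fcgr1, Itgam and Laptm5, and not in those of Mpeg1 and Lyz2, while 23.3% of all 32851 windows held it. The longer PU.1 form GAGGAAGT, which contains that core, was in 0 of the 8 windows and in 2.44% of all. The LXR element, a direct repeat of AGGTCA with 4 free bases between the copies, was in 0 of the 8 and in 0.0152% of all windows, and TGTGGT, a motif of RUNX factors, was in 1 of the 8, that of Lyz2, and in 14% of all. These are matches of letters on both strands of a short window and say nothing about binding.

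Lyz2 has a near copy, Lyz1, the lysozyme of intestinal Paneth cells, and their coding sequences show how alike the genes are. In the GENCODE M21 annotation of GRCm38, both coding sequences are 444 bases long and differ at 22 positions, an identity of 95.045%, and the longest identical run is 118 bases. Coding bases 61 to 120, the stretch with the most differences, follow for both genes, with the 9 differing bases in capitals.
Lyz2: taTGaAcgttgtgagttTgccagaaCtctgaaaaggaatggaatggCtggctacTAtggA
Lyz1: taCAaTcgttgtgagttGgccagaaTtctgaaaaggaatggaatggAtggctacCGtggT
Lyz1 reached at most 0.00906 of the length-scaled level of Lyz2 in any library, and how the counting treated reads that match both is not given in the sources used here. Csf1r overlaps Hmgxb3 on the opposite strand, which had 108 to 1068 counts per library, and the use of strand in the counting is not given either, so counts of these genes may be mixed. The genes Hmgb1-ps5 within Ctss and Gm49368 over Itgam had at most 5 and 2 counts.

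Expression per length was first set in order within each group, as FPKM. These are counts scaled by the TMM-adjusted library size and by the gene length in the table, here with 1 TMM scaling over all 20 libraries. In labelled knockout liver Lyz2 led with 40.7 ± 7.64 FPKM (SD, n = 5 in this and all other groups), ahead of Ctss at 21.2 ± 4.41. Then came Cd68 at 9.52 ± 3.45, Csf1r at 8.53 ± 1.73 and Mpeg1 at 7.30 ± 2.36 FPKM, whose ranges overlapped. Aif1 (3.51 ± 0.685) and Laptm5 (3.18 ± 0.916) overlapped as well, as did Fcgr1 (1.36 ± 0.401) and Adgre1 (1.35 ± 0.250), and Itgam was last at 0.160 ± 0.0585 FPKM. In wild-type liver Lyz2 (53.7 ± 13.02 FPKM) and Ctss (30.3 ± 5.63) again led, and Mpeg1 at 15.97 ± 2.28 came next, above Csf1r (11.2 ± 2.18), Cd68 (9.78 ± 1.46), Aif1 (5.17 ± 1.02), Laptm5 (4.40 ± 1.02), Adgre1 (3.20 ± 1.22), Fcgr1 (2.19 ± 0.388) and Itgam (0.154 ± 0.0356). In wild-type liver the ranges of neighbours in this order overlapped for Mpeg1 and Csf1r, Csf1r and Cd68, Aif1 and Laptm5, Laptm5 and Adgre1, and Adgre1 and Fcgr1.

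In kidney Csf1r took the second place behind Lyz2 in both genotypes. Labelled knockout kidney had 17.1 ± 12.4 FPKM of Lyz2, 9.74 ± 2.41 of Csf1r and 5.23 ± 1.59 of Ctss, and wild-type kidney had 17.2 ± 8.23, 11.4 ± 3.87 and 7.68 ± 2.75 FPKM. The ranges of Lyz2 and Csf1r, and of Csf1r and Ctss, overlapped in both genotypes. The next places were those of Mpeg1 (1.94 ± 0.819 FPKM in labelled knockout and 2.82 ± 0.585 in wild-type kidney) and Cd68 (1.69 ± 0.382 and 2.75 ± 0.634), which did not differ beyond their spread. Laptm5 (1.22 ± 0.147 and 1.85 ± 0.784), Aif1 (1.03 ± 0.272 and 1.51 ± 0.548), Adgre1 (0.508 ± 0.323 and 0.756 ± 0.284), Fcgr1 (0.310 ± 0.103 and 0.607 ± 0.0944) and Itgam (0.115 ± 0.0740 and 0.178 ± 0.0798) followed in both genotypes. From Mpeg1 down, each of these genes overlapped with the next in its range, other than Fcgr1 and Itgam in wild-type kidney.

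The comparison of labelled knockout with wild-type liver asks whether the macrophage markers differ with the genotype. Mpeg1 and Adgre1 fell in the labelled knockout, to 0.453 and 0.418 of the wild-type level, and the other 8 markers were not called. Calls rest on edgeR's quasi-likelihood test, with a threshold of 0.05 on p after Benjamini-Hochberg adjustment over all 14822 genes tested, and all 10 markers passed the filter on low counts. Of the 10 markers, 2 were called lower and 0 higher, where 6.02% of all genes tested were called, 4.08% lower and 1.94% higher. The estimate was below zero for 9 of 10 markers with a median log2 fold change of -0.51, while 50.5% of all genes were below zero with a median of -0.0032. At an unadjusted p under 0.05 stood 8 of the 10 markers and 20.3% of all genes. Adjusted p values below are from that test, levels are CPM with scaling within the tissue, and a negative fold change means a lower level in the labelled knockout. With library size alone as the scale, 216 genes were called higher and 766 lower in labelled knockout liver, in place of 288 and 605.

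**Figure D1:**
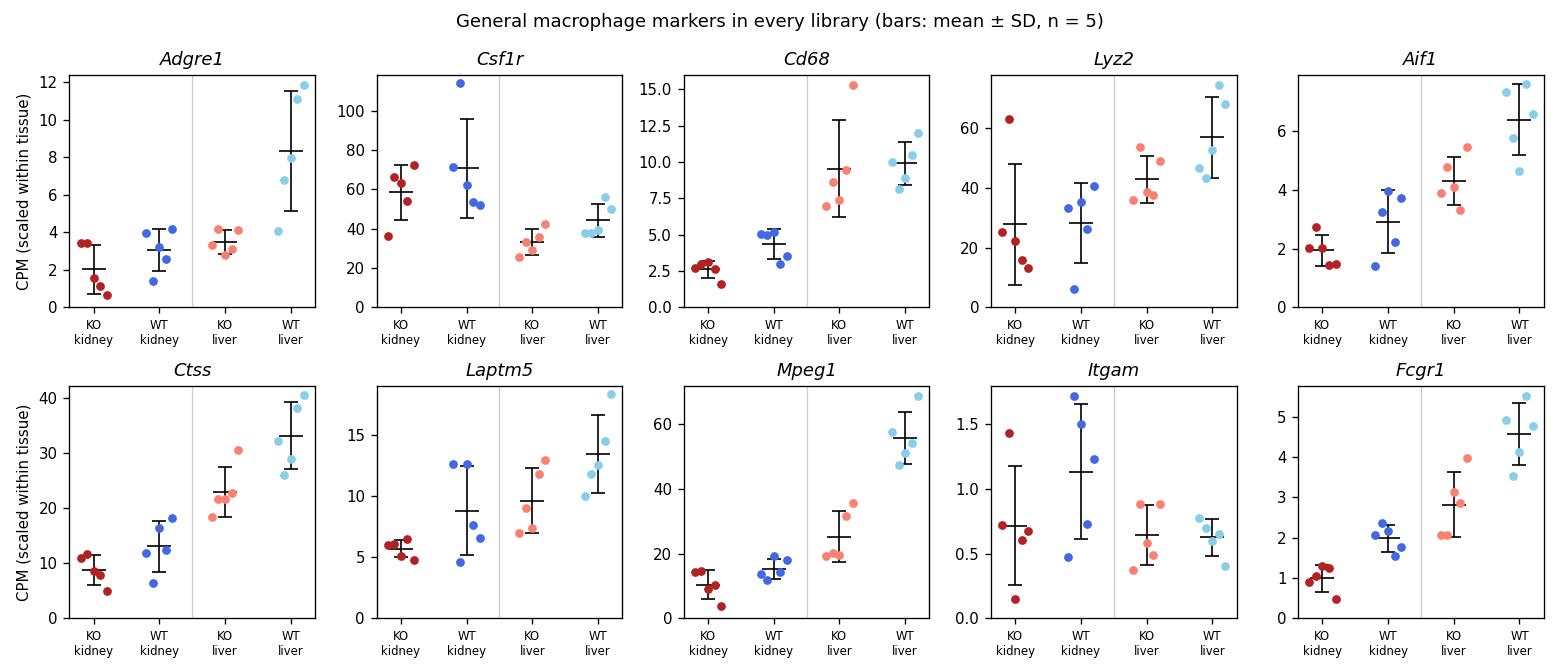
CPM of each of the 10 markers in every library, scaled within the tissue, for labelled knockout (KO) and wild-type (WT) kidney and liver; points are libraries and bars are mean ± SD (n = 5 each). Mpeg1 lies between 19.3 and 35.8 CPM in the labelled knockout livers, below all wild-type livers at 47.5 to 68.8 CPM.

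Mpeg1 encodes perforin-2, a pore-forming protein of phagocytes that acts on engulfed bacteria, and lies at chr19:12460779-12465284 on the plus strand (mm10). It had 19.3, 20.1, 19.5, 31.7 and 35.8 CPM in the labelled knockout livers and 57.6, 47.5, 51.1, 54.3 and 68.8 CPM in the wild-type livers. The groups did not overlap, as for 4.53% of all genes tested in that direction, and labelled knockout livers 4 and 5 lay above the other 3 of their group. The means were 25.3 ± 7.88 and 55.9 ± 8.15 CPM (log2 fold change -1.14, SE 0.19, adjusted p = 0.00323, 95% interval -1.55 to -0.74). The call held in all 21 alternative fits, with adjusted p values up to 0.0372. Among these, the fit without labelled knockout livers 4 and 5 (log2 fold change -1.50) left out the highest values of that group. Its larger fall was given in advance and is no independent check.

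Adgre1 encodes the adhesion receptor F4/80, the most used surface marker of mouse macrophages, at chr17:57358691-57483527 on the plus strand. Its levels were 3.33, 4.19, 2.77, 3.09 and 4.13 CPM in labelled knockout livers and 4.07, 6.80, 7.94, 11.1 and 11.8 CPM in wild-type livers. The labelled knockout values were close together and the wild-type ones spread widely, and the groups overlapped, since wild-type liver 1 lay below labelled knockout livers 2 and 5. The mean was 3.50 ± 0.633 CPM in the labelled knockout, against 8.35 ± 3.19 CPM in wild type (log2 fold change -1.26, SE 0.26, adjusted p = 0.0126). The call was lost in 3 of 21 alternative fits, among them that of all 20 libraries (adjusted p = 0.0612, log2 fold change -1.24) and that without labelled knockout livers 4 and 5 (adjusted p = 0.0538, log2 fold change -1.28).

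Among the other surface proteins, Fcgr1, the high-affinity receptor for IgG, had 2.06, 2.05, 3.14, 2.86 and 3.97 CPM in labelled knockout livers and 4.93, 3.53, 4.11, 5.52 and 4.77 CPM in wild-type livers. Only the highest labelled knockout liver, number 5, reached into the wild-type range (log2 fold change -0.70, SE 0.21, adjusted p = 0.0736). With 1 library left out the adjusted p ran from 0.0331, without that liver, to 0.161. Csf1r, the receptor for CSF1 and IL-34, had 25.7, 33.3, 29.4, 35.6 and 42.5 CPM in labelled knockout livers and 38.0, 38.0, 39.2, 56.2 and 50.03 CPM in wild-type livers. The labelled knockout livers other than number 5 lay below all wild-type livers (log2 fold change -0.41, SE 0.15, adjusted p = 0.151). Itgam, the CD11b chain of complement receptor 3, is typical of monocytes and neutrophils and low on Kupffer cells, and had 0.374, 0.880, 0.579, 0.492 and 0.887 CPM in labelled knockout livers and 0.776, 0.698, 0.598, 0.649 and 0.402 CPM in wild-type livers. The groups overlapped (log2 fold change 0.04, SE 0.31, adjusted p = 0.962), and these levels stand on 10 to 23 counts per labelled knockout library and 14 to 20 per wild-type library.

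None of the lysosomal markers was called in liver. Cd68, a heavily glycosylated membrane protein of late endosomes and lysosomes, had 7.002, 8.60, 7.40, 9.46 and 15.3 CPM in labelled knockout livers and 10.01, 8.16, 8.93, 10.5 and 12.01 CPM in wild-type livers. Labelled knockout liver 5 was the highest of all 10 livers and the groups overlapped (log2 fold change -0.05, SE 0.20, adjusted p = 0.914, 95% interval -0.50 to 0.39). Ctss, the cysteine protease cathepsin S that trims the invariant chain of MHC class II, had 18.3, 21.6, 21.8, 22.8 and 30.6 CPM in labelled knockout livers and 32.2, 26.1, 28.9, 38.3 and 40.5 CPM in wild-type livers. All labelled knockout livers but number 5 lay below the wild-type livers (log2 fold change -0.53, SE 0.15, adjusted p = 0.0648). With 1 library left out the adjusted p ran from 0.0203, without labelled knockout liver 5, to 0.187. Laptm5, a lysosomal membrane protein of blood cells that dampens receptor signalling, had 7.002, 9.01, 7.36, 11.8 and 12.96 CPM in labelled knockout livers and 10.05, 11.8, 12.5, 14.5 and 18.4 CPM in wild-type livers. Its groups overlapped (log2 fold change -0.48, SE 0.20, adjusted p = 0.203).

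Lyz2, the lysozyme of myeloid cells, had 35.8, 53.5, 38.6, 37.5 and 48.9 CPM in labelled knockout livers and 46.5, 43.4, 52.5, 74.4 and 67.9 CPM in wild-type livers, with overlapping groups (log2 fold change -0.41, SE 0.17, adjusted p = 0.193). Aif1, which encodes the actin-bundling protein IBA1, had 3.89, 4.78, 4.09, 3.33 and 5.44 CPM in labelled knockout livers and 7.33, 5.77, 4.64, 7.60 and 6.58 CPM in wild-type livers. Wild-type liver 4 lay within the labelled knockout range, and the groups overlapped through it alone (log2 fold change -0.57, SE 0.18, adjusted p = 0.0897).

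**Figure D2:**
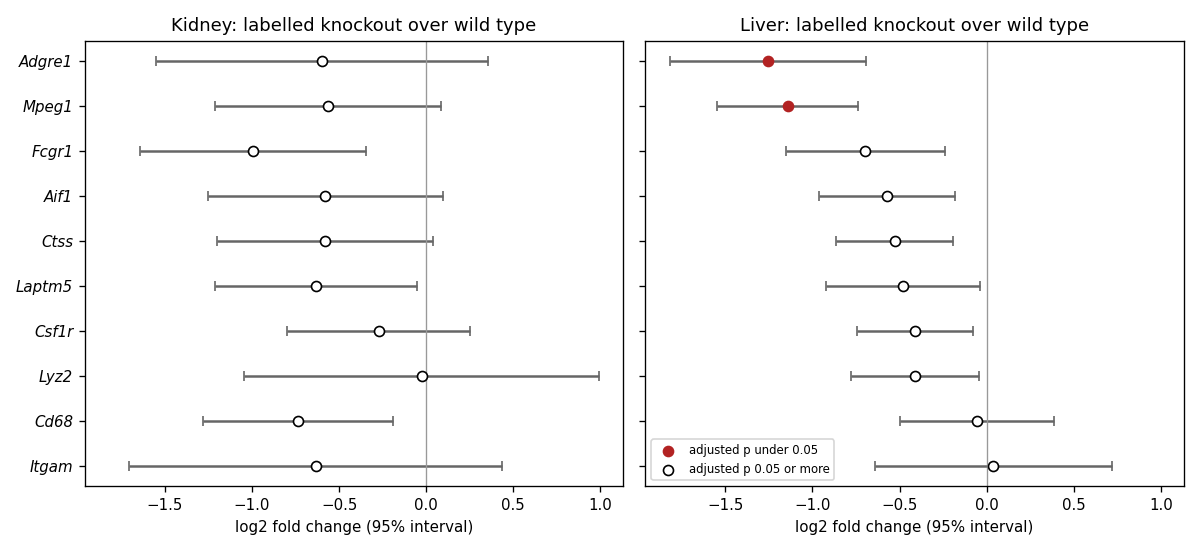
Log2 fold change of labelled knockout over wild type for the 10 markers in kidney and in liver, with 95% intervals from the quasi-likelihood fit (5 against 5 libraries each); filled points have an adjusted p under 0.05. In liver Adgre1 at -1.26 and Mpeg1 at -1.14 are filled and Cd68 lies at -0.05, and in kidney no point is filled.

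Ratios between markers of the same library need no scaling between libraries and show the unequal levels directly. They were chosen after the values were seen and are given without a test. The FPKM ratio of Mpeg1 to Cd68 was 0.799, 0.678, 0.765, 0.971 and 0.679 in labelled knockout livers and 1.67, 1.69, 1.66, 1.51 and 1.66 in wild-type livers. The highest labelled knockout value lay well below the lowest wild-type one. In kidney the same ratio was 1.54, 1.41, 0.842, 1.10 and 0.685 in the labelled knockout and 0.777, 0.683, 1.07, 1.39 and 1.47 in wild type, with full overlap. Mpeg1 relative to Ptprc, the pan-leukocyte antigen CD45, was 9.26, 6.98, 8.45, 15.5 and 12.3 in labelled knockout livers and 17.1, 17.5, 18.1, 17.9 and 19.3 in wild-type livers, again without overlap. Cd68 relative to Ptprc was 11.6, 10.3, 11.1, 15.9 and 18.1 in labelled knockout livers and 10.2, 10.4, 10.9, 11.9 and 11.6 in wild-type livers, with overlap. Adgre1 relative to Ptprc was 2.14, 1.95, 1.606, 2.02 and 1.89 in labelled knockout livers. In wild-type livers it was 1.614, 3.36, 3.77, 4.91 and 4.46, with overlap through wild-type liver 1. The ratio of Cd68 to Adgre1 was 5.41, 5.28, 6.88, 7.87 and 9.56 in labelled knockout livers and 6.33, 3.09, 2.90, 2.43 and 2.61 in wild-type livers. Here wild-type liver 1 stood apart from the other wild-type livers and inside the labelled knockout range.

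**Figure D3:**
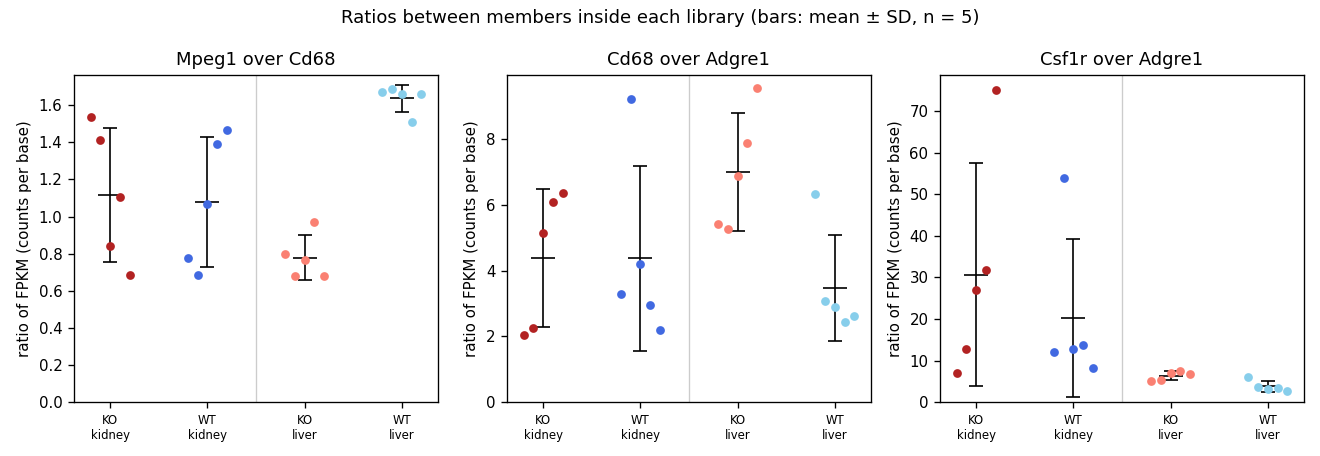
FPKM ratios of Mpeg1 to Cd68, Cd68 to Adgre1 and Csf1r to Adgre1 inside each library of labelled knockout (KO) and wild-type (WT) kidney and liver; points are libraries and bars are mean ± SD (n = 5 each). In liver Mpeg1 over Cd68 lies at 0.678 to 0.971 in the labelled knockout and at 1.51 to 1.69 in wild type.

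Other lists that hold macrophage genes were read in liver. Of 8 Kupffer cell markers, 5 were called lower and 1 higher, with a median of -0.81 and 6 estimates below zero and 2 above. Their sum was higher in the labelled knockout, with 628 to 818 CPM against 435 to 542 CPM in wild-type livers. Clec4f, a lectin of mouse Kupffer cells, had 36.2 to 89.4 CPM in labelled knockout and 96.2 to 139 CPM in wild-type livers (log2 fold change -1.07, SE 0.21, adjusted p = 0.00930). Cd5l, a secreted macrophage protein and known LXR target, had 0.0749 to 0.520 CPM in labelled knockout livers, against 67.2 to 124 CPM in wild-type livers (log2 fold change -8.45, SE 0.37, adjusted p = 1.22e-07). The 1 list member called higher was C6, a complement component that liver cells other than macrophages can also make (log2 fold change 2.42, SE 0.35, adjusted p = 0.00145). C6 alone had 372 to 587 CPM in labelled knockout and 25.3 to 141 CPM in wild-type livers. Among 9 scavenger receptors, 2 were called lower and 0 higher. They were Cd36, the fatty acid and oxidised lipoprotein receptor (log2 fold change -2.48, SE 0.25, adjusted p = 0.000116), and Timd4, a receptor for dead cells on resident macrophages (log2 fold change -2.05, SE 0.21, adjusted p = 0.00012). The mean of Cd36 was 48.0 CPM in wild-type liver and 233 CPM in wild-type kidney, each scaled within its tissue. Which liver cells hold the Cd36 counts was not tested.

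Of 6 phagocyte oxidase genes, 2 were called lower in the labelled knockout livers. They were Cybb, the catalytic subunit (log2 fold change -0.93, SE 0.16, adjusted p = 0.00340), and Rac2, its small GTPase (log2 fold change -0.80, SE 0.18, adjusted p = 0.0218), whose call was lost without 1 library in 5 of 10 fits. The call of Cybb was lost with all 20 libraries in 1 fit (edgeR adjusted p = 0.0579). Of 12 genes of the CSF1 receptor pathway only the phospholipase gene Plcg2 was called (log2 fold change -0.87, SE 0.18, adjusted p = 0.0136), and Il34, a ligand of the receptor, had a log2 fold change of -0.60 (adjusted p = 0.179). Of 11 myeloid transcription factors 1 was called lower, Ikzf1, and 1 higher, Irf5. Their calls were lost without 1 library in 4 and 8 of 10 fits. Of 6 Fc receptor genes, 5 tested integrin genes and 6 tested genes of the C1q and TREM2 group 0 were called.

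Markers of other cells also differed between the livers. Of 10 pan-leukocyte genes, 2 were called lower, with a median of -0.59, and their sum was 111 to 136 CPM in labelled knockout and 131 to 155 CPM in wild-type livers. All 7 B cell markers tested were called lower, with a sum of 6.54 to 13.9 CPM in labelled knockout and 19.1 to 37.1 CPM in wild-type livers. Of 9 tested T and NK cell markers, 4 were called lower and 1 higher, and of 8 tested monocyte markers 3 were called lower and 1, Cx3cr1, higher (log2 fold change 2.03, SE 0.32, adjusted p = 0.00242). Of 13 neutrophil markers 4 were tested and 0 called, with a sum of 3.35 to 26.8 CPM in labelled knockout and 7.02 to 9.81 CPM in wild-type livers, and all 12 interferon-stimulated genes were called lower. Of 8 fibroblast and stellate cell markers 3 were called lower, the collagen genes Col1a1 (log2 fold change -1.74, SE 0.27, adjusted p = 0.00203), Col1a2 and Col3a1, with a sum of 125 to 245 CPM in labelled knockout and 184 to 392 CPM in wild-type livers. Of 12 genes of lysosomal proteases and membranes 2 were called lower, Ctsd (log2 fold change -0.60, SE 0.12, adjusted p = 0.00894) and Lgmn (log2 fold change -0.75, SE 0.18, adjusted p = 0.0252), which encode cathepsin D and legumain, and the call of Lgmn was lost without 1 library in 5 of 10 fits. Ccr3, a chemokine receptor of eosinophils and the 1 gene tested of 5 eosinophil markers, was called higher, with 3.41 to 4.71 CPM in labelled knockout and 0.0862 to 0.292 CPM in wild-type livers (log2 fold change 4.70, SE 0.30, adjusted p = 2.67e-06). Lower calls were made for 1 of 10 dendritic cell markers, 1 of 9 endothelial markers and 1 of 8 hepatocyte markers, and a higher call for 1 of 2 tested proximal tubule markers. The lower calls of Cd53, Nkg7, Cdh5 and Alb were lost without 1 library in 5, 6, 6 and 9 of 10 fits. These genes belong to the pan-leukocyte, T and NK cell, endothelial and hepatocyte lists, in this order. Without labelled knockout livers 4 and 5 the counts called were 4 for B cell, 1 for T and NK cell, 1 for fibroblast and 0 for endothelial, hepatocyte and proximal tubule markers. The sum of the 10 macrophage markers was 123 to 201 CPM in labelled knockout and 192 to 281 CPM in wild-type livers. The part of these cell types in the levels of Mpeg1 and Adgre1 was not tested.

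In kidney the same comparison gave lower estimates for all 10 markers but no call. Of the 10 markers 0 were called, where 2.26% of the 16500 genes tested were called, and 3 of 10 stood at an unadjusted p under 0.05 against 19.8% of all genes. The median log2 fold change was -0.59, while the median of all genes was -0.07 with 56.2% of them below zero. DESeq2 called 1 marker, limma voom called 3, and edgeR on all 20 libraries called 1, each of them lower in the labelled knockout. Without wild-type kidneys 1 and 3 the count called by edgeR was 0 as well. The log2 fold changes were then -0.88 for Fcgr1, -0.85 for Ctss, -0.77 for Aif1, -0.73 for Mpeg1, -0.70 for Adgre1, -0.68 for Itgam, -0.65 for Laptm5, -0.58 for Cd68, -0.29 for Lyz2 and 0.06 for Csf1r.

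Fcgr1 was the only marker whose kidney groups did not overlap, and 4.13% of all genes tested were without overlap in the same direction. It had 0.892, 1.05, 1.29, 1.24 and 0.473 CPM in the labelled knockout kidneys and 2.07, 2.37, 2.16, 1.54 and 1.76 CPM in the wild-type kidneys. The mean was 0.990 ± 0.331 CPM in labelled knockout and 1.98 ± 0.329 CPM in wild-type kidneys (log2 fold change -0.996, SE 0.30, adjusted p = 0.103, 95% interval -1.65 to -0.35), on 14 to 35 and 44 to 87 counts per library. DESeq2 (adjusted p = 0.0256), limma voom (0.0458) and edgeR on all 20 libraries (0.0339) called it.

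Csf1r had 36.4, 66.2, 63.1, 54.0 and 72.6 CPM in the labelled knockout kidneys and 71.6, 114, 62.3, 53.6 and 52.2 CPM in the wild-type kidneys. On this scale wild-type kidney 3, the library with the high mitochondrial share, held the highest value, and the groups overlapped (log2 fold change -0.27, SE 0.24, adjusted p = 0.517). It held 2117 Csf1r counts of 23421561 in all, and wild-type kidney 1 held 3001 of 32221055. Their order rests on the TMM factors, 0.795 for wild-type kidney 3 and 1.30 for wild-type kidney 1. Adgre1 had 3.43, 3.42, 1.55, 1.13 and 0.642 CPM in the labelled knockout kidneys and 3.96, 1.399, 3.20, 2.60 and 4.16 CPM in the wild-type kidneys. Both groups ran over more than 1 log2 unit and overlapped (log2 fold change -0.60, SE 0.44, adjusted p = 0.441). Itgam had 0.720, 1.43, 0.148, 0.603 and 0.675 CPM in the labelled knockout kidneys and 0.477, 1.72, 1.504, 0.726 and 1.24 CPM in the wild-type kidneys, on 4 to 41 and 20 to 39 counts per library. Labelled knockout kidney 3 was the lowest and the groups overlapped (log2 fold change -0.63, SE 0.50, adjusted p = 0.462).

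Cd68 had 2.71, 3.002, 3.11, 2.67 and 1.59 CPM in the labelled knockout kidneys and 5.06, 5.003, 5.21, 2.99 and 3.54 CPM in the wild-type kidneys. Labelled knockout kidney 5 was the lowest, and wild-type kidney 5 lay below the highest labelled knockout value, so the groups overlapped there (log2 fold change -0.74, SE 0.25, adjusted p = 0.144). Ctss had 10.9, 11.7, 8.51, 7.80 and 4.86 CPM in the labelled knockout kidneys and 11.8, 6.40, 16.4, 12.5 and 18.3 CPM in the wild-type kidneys. Wild-type kidney 3 lay within the labelled knockout range (log2 fold change -0.58, SE 0.29, adjusted p = 0.283). Laptm5 had 6.00, 6.11, 5.10, 6.52 and 4.79 CPM in the labelled knockout kidneys and 12.6, 4.63, 12.6, 7.62 and 6.54 CPM in the wild-type kidneys. Wild-type kidney 3 was the lowest of all 10 kidneys and wild-type kidneys 1 and 4 were the highest (log2 fold change -0.63, SE 0.27, adjusted p = 0.221). Limma voom called Ctss (adjusted p = 0.0402) and Laptm5 (adjusted p = 0.0362).

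Lyz2 had 25.3, 63.0, 22.1, 15.9 and 13.03 CPM in the labelled knockout kidneys and 33.4, 6.19, 35.4, 26.1 and 40.6 CPM in the wild-type kidneys. The highest and the lowest kidney were labelled knockout kidney 2 and wild-type kidney 3 (log2 fold change -0.03, SE 0.47, adjusted p = 0.977), and without labelled knockout kidney 2 the log2 fold change was -0.57. Mpeg1 had 14.4, 14.6, 9.02, 10.2 and 3.75 CPM in the labelled knockout kidneys and 13.5, 11.8, 19.2, 14.3 and 17.9 CPM in the wild-type kidneys. The groups overlapped, with labelled knockout kidney 5 the lowest (log2 fold change -0.57, SE 0.30, adjusted p = 0.309). Aif1 had 2.02, 2.72, 2.03, 1.43 and 1.49 CPM in the labelled knockout kidneys and 1.41, 3.23, 3.97, 2.24 and 3.71 CPM in the wild-type kidneys, with wild-type kidney 1 the lowest of all 10 kidneys (log2 fold change -0.58, SE 0.31, adjusted p = 0.316).

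Il34, a ligand of the CSF1 receptor that tubular cells make, was the only gene called of 12 in that pathway in kidney, and it was higher in the labelled knockout. It had 24.5 to 47.9 CPM in labelled knockout and 12.4 to 23.2 CPM in wild-type kidneys, without overlap (log2 fold change 1.03, SE 0.23, adjusted p = 0.0374). The call was lost without wild-type kidney 1 or 5 or labelled knockout kidney 3, 4 or 5, with adjusted p values up to 0.114. Csf1, the other ligand, had 3.92 to 11.3 CPM in labelled knockout and 8.16 to 23.6 CPM in wild-type kidneys, with overlap (log2 fold change -0.99, SE 0.32, adjusted p = 0.122). The genotype effect on Il34 differed between the tissues (kidney minus liver log2 difference 1.66, edgeR adjusted p = 0.00731).

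Of the remaining myeloid lists in kidney, 0 were called of 11 myeloid transcription factors, 6 Fc receptor genes, 5 tested integrin genes, 6 tested C1q and TREM2 genes and 7 tested scavenger receptors. Of 6 phagocyte oxidase genes 1, Rac2, was called lower (log2 fold change -1.17, SE 0.26, adjusted p = 0.0362), and its call was lost without 1 library in 6 of 10 fits. Of 8 tested monocyte markers 1 was called lower, Fn1, the fibronectin gene that fibroblasts also express (log2 fold change -1.96, SE 0.35, adjusted p = 0.0136), and its call was lost without labelled knockout kidney 4 or 5, with adjusted p values up to 0.0559. Of 12 genes of lysosomal proteases and membranes 1 was called lower, the cathepsin K gene Ctsk (log2 fold change -0.92, SE 0.22, adjusted p = 0.0443), and its call was lost without 1 library in 7 of 10 fits. Without wild-type kidneys 1 and 3 the counts called were 3 for monocyte markers and 2 for C1q and TREM2 genes. The sum of the 10 macrophage markers was 101 to 173 CPM in labelled knockout kidneys and 124 to 162 CPM in wild-type kidneys. Of 10 pan-leukocyte genes 0 were called, with a median of -0.69 and a sum of 51.1 to 93.8 CPM in labelled knockout and 79.7 to 108 CPM in wild-type kidneys.

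Genes of other cells and of the interferon response were called in the kidneys, where no macrophage marker was. Fibroblast markers were called lower in 4 of 8 cases, with a sum of 97.8 to 188 CPM in labelled knockout and 277 to 681 CPM in wild-type kidneys. T and NK cell markers were called lower in 6 of 10 tested, with a sum of 5.10 to 8.97 CPM in labelled knockout and 12.6 to 23.7 CPM in wild-type kidneys. That count was 1 or 2 without wild-type kidney 4 or 5 or labelled knockout kidney 1, 3, 4 or 5. Interferon-stimulated genes were called lower in 9 of 12 cases, with a median of -1.72 and a sum of 53.1 to 92.0 CPM in labelled knockout and 163 to 223 CPM in wild-type kidneys. Of 7 B cell markers 0 were called and 5 stood at an unadjusted p under 0.05, with a median of -1.01 and a sum of 4.29 to 12.5 CPM in labelled knockout and 13.4 to 31.3 CPM in wild-type kidneys. Endothelial markers were called lower in 1 of 9, Cdh5 (log2 fold change -1.08, SE 0.25, adjusted p = 0.0402), with a sum of 159 to 337 CPM in labelled knockout and 345 to 475 CPM in wild-type kidneys. The call of Cdh5 was lost without wild-type kidneys 1 and 3 (adjusted p = 0.0557) and without 1 library in 7 of 10 fits. Proximal tubule markers had estimates above zero in all 8 cases, 1 of them, Slc22a6, called higher (log2 fold change 1.11, SE 0.24, adjusted p = 0.0332), with a sum of 11191 to 13231 CPM in labelled knockout and 9522 to 10975 CPM in wild-type kidneys. The call of Slc22a6 was lost without 1 library in 7 of 10 fits. Of 10 dendritic cell markers, 4 tested neutrophil markers, 1 tested eosinophil marker and 6 tested hepatocyte markers 0 were called. Of 8 Kupffer cell markers 4 were tested and 0 called, and Clec4f had no count in any kidney and Vsig4 none in a labelled knockout kidney. The part of these cell types in the kidney levels of the macrophage markers was not tested.

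No marker was called for a difference between kidney and liver in its genotype effect. In a fit of all 20 libraries 0 of 10 were called, where 1.51% of 17606 genes were called, and 0 of 10 stood at an unadjusted p under 0.05 against 13.5% of all genes. DESeq2 and limma voom called 0 too. The kidney minus liver difference of log2 fold changes was lowest for Cd68 at -0.67 (95% interval -1.33 to 0.0021) and highest for Adgre1 at 0.66 (-0.44 to 1.76). For Mpeg1 it was 0.59 with an interval of -0.18 to 1.36. This interval includes zero as well as a fall in liver larger by more than 1 log2 unit, so the call of Mpeg1 in liver and not in kidney does not show a difference between the tissues.

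Wild-type kidney had less of most markers than wild-type liver. Of the 10 markers 8 were called lower in kidney and 0 higher, where 53.8% of 16645 genes were called, 24.2% lower and 29.6% higher. The 8 were also those without overlap between the tissues, as were 20.4% of all genes in that direction, and their log2 fold changes of kidney over liver ran from -2.50 to -1.24. The median of the 10 was -1.80 against 0.05 for all genes. Both tissues differ in most of their transcripts, so a level here is relative to the other transcripts of the same tissue. With library size alone as the scale, the median of all genes was higher by 0.64, and 8536 genes were called higher and 2166 lower in kidney, in place of 4921 and 4033. Without wild-type kidneys 1 and 3 the count of markers called lower was 8 as well. Under that scale 6 markers were called lower, Lyz2 (-0.93) and Laptm5 (-0.55) lost the call, and Csf1r was called higher (0.65, edgeR adjusted p = 0.0215).

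Mpeg1 showed the lowest fold change, with 2.53, 2.09, 3.51, 2.64 and 3.31 FPKM in wild-type kidneys and 16.6, 13.5, 14.5, 15.8 and 19.4 FPKM in wild-type livers (log2 fold change -2.497, SE 0.19, adjusted p = 6.68e-08). Adgre1 had 0.990, 0.333, 0.784, 0.640 and 1.03 FPKM in wild-type kidneys and 1.57, 2.58, 3.03, 4.32 and 4.48 FPKM in wild-type livers (log2 fold change -2.06, SE 0.34, adjusted p = 0.000141). Every wild-type kidney lay below every wild-type liver for both genes. Ctss (log2 fold change -1.97, SE 0.26, adjusted p = 1.77e-05), Fcgr1 (log2 fold change -1.85, SE 0.22, adjusted p = 7.56e-06), Cd68 (log2 fold change -1.82, SE 0.21, adjusted p = 5.03e-06), Aif1 (log2 fold change -1.78, SE 0.28, adjusted p = 0.000105), Lyz2 (log2 fold change -1.64, SE 0.38, adjusted p = 0.00233) and Laptm5 (log2 fold change -1.24, SE 0.28, adjusted p = 0.00206) were the other 6 called lower.

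Csf1r and Itgam were the markers that were not called. Csf1r had 11.9, 17.96, 10.1, 8.74 and 8.57 FPKM in wild-type kidneys and 9.73, 9.57, 9.92, 14.5 and 12.5 FPKM in wild-type livers. Under TMM scaling the highest of these was wild-type kidney 3, and the tissues overlapped (log2 fold change 0.03, SE 0.22, adjusted p = 0.916, 95% interval -0.45 to 0.52). Itgam had 0.0769, 0.264, 0.237, 0.115 and 0.197 FPKM in wild-type kidneys and 0.193, 0.171, 0.147, 0.163 and 0.0981 FPKM in wild-type livers, with overlap (log2 fold change 0.20, SE 0.38, adjusted p = 0.687). Relative to Adgre1, Csf1r stood at 8.31 to 54.0 in wild-type kidneys and 2.80 to 6.18 in wild-type livers by FPKM ratio, without overlap. Il34 was higher in wild-type kidney than in wild-type liver (log2 fold change 2.85, SE 0.24, adjusted p = 2.77e-07), and Csf1 was not called (log2 fold change -0.29, SE 0.23, adjusted p = 0.315).

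**Figure D4:**
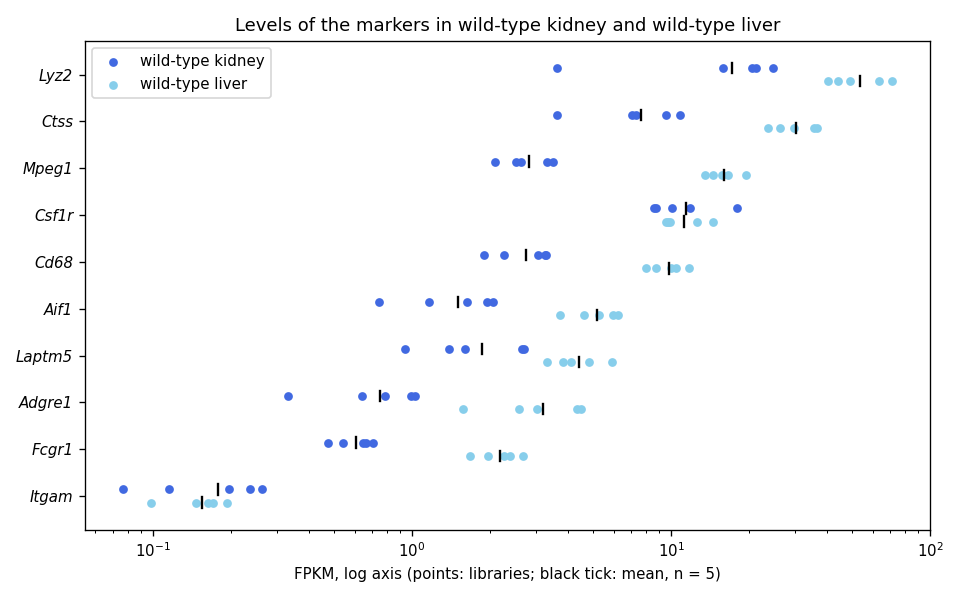
FPKM of the 10 markers in wild-type kidney and wild-type liver on a log axis; points are libraries (n = 5 each) and black ticks are means. All wild-type kidneys lie below all wild-type livers for 8 markers, and the ranges overlap for Csf1r and Itgam.

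The 10 markers were also compared with each other across the 10 libraries of a tissue, as deviations of log2 CPM from the genotype means. The libraries share their scaling, so these correlations are a description. Over the 45 pairs the median Pearson r was 0.23 in kidney (-0.74 to 0.90, 35 above zero) and 0.56 in liver (-0.16 to 0.91, 44 above zero). In liver Ctss (r = 0.95), Csf1r (0.94) and Cd68 (0.91) lay closest to the mean of the other 9 markers and Itgam farthest (0.23). In kidney Mpeg1 was closest (r = 0.85), and Csf1r had a negative r to the mean of the other 9 (-0.42), with its lowest r to Ctss (-0.74). Wild-type kidney 3, with the high mitochondrial share, had the highest Csf1r (114 CPM) and the lowest Ctss (6.40 CPM) of its group. The same held for labelled knockout kidney 5 in its group (72.6 and 4.86 CPM). The correlations were not computed without these libraries, and counts of Hmgxb3 may be mixed into Csf1r. Labelled knockout kidney 5 and labelled knockout liver 1 were the lowest libraries of their tissue by mean standardised deviation of the markers (-1.08 and -1.03), and labelled knockout kidney 2 and labelled knockout liver 5 the highest (0.92 and 1.41).

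The genes most like the mean of the markers by the same measure were partly macrophage genes. In kidney, over 10 libraries and 14295 genes ranked, they included Cybb (r = 0.97), Tnfaip8l2 (0.93), Car3 (0.92), Ifi204 (0.90), Mrc1 (0.90), Clec1a (0.90) and Plpp7 (0.89). In liver, over 12756 genes, they included the complement gene C1qb (0.97), the complement receptor gene Vsig4 (0.97), Pilra (0.97), Itgal (0.96), Nucb2 (0.95), C1qa (0.95) and Sdc3 (0.94). No gene was among the 8 in both tissues. With so many genes ranked over 10 libraries, high r values at the top can arise without any link to the markers, and no test was run. The lack of a shared gene therefore does not show a difference between the tissues.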

How the data were processed

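RNA was taken from frozen kidney and liver and sequenced as 20 libraries. The authors deposited raw counts per gene, in whole numbers. They also deposited log2 FPKM values of 15454 genes, those with a count in every library, and these served in 1 alternative. HISAT2 2.0.5, StringTie, DESeq2 1.16.1 and build mm10 are named in the submitters' processing notes, without role or order. The counting tool and the use of strand are not given in the sources used here.

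Counts were tested with edgeR 4.0.16 in R 4.3.3 (filterByExpr with a minimum count of 10, TMM scaling, quasi-likelihood F test, Benjamini-Hochberg adjustment over all genes tested, calls at 0.05). The 10 libraries of a tissue were fitted alone for genotype, the 10 wild-type libraries for tissue, and all 20 for the difference of genotype effects. Intervals are 95% intervals from the quasi-likelihood standard error. Correlations used log2 CPM with a prior count of 2. The steps were tested on simulated data. Precision at low counts is limited by the number of reads, and intervals cover the spread between these libraries. Whether replicates share litters or cages is not in the labels, so p values set a difference against the spread between these libraries alone.

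Named genes were the 10 markers, from each other list at most 3 members with the smallest p, and per tissue the 8 genes most like the markers' mean with at least 1 CPM, some of which are not reported here. Names outside this rule (Nr1h3, Ptprc and Lyz1 in ratios, overlapping genes, Clec4f and Vsig4 in kidney, Csf1 and Il34 between wild-type tissues) were chosen after their values were seen. The markers and lists were chosen with earlier results of these data known. Alternatives were DESeq2 1.42.0, limma 3.58.1 voom with quality weights, limma-trend on log2 FPKM, DESeq2 size factors, library size alone, other filters, no mitochondrial genes, 1 fit of all libraries, replicate blocks, and leaving libraries out. Only the alternative block by mouse treated a kidney and a liver library of equal genotype and number as coming from 1 mouse. That follows the design text, which speaks of 5 mice per genotype. The main fits had no block and took all libraries as independent, also where both tissues were fitted together. Between a kidney and a liver library of equal genotype and number, the correlation of deviations from group means was -0.15 to 0.28 over the 10 mice.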

Additional observations from a re-analysis of the deposited data

Results flagged for a closer look

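Within the groups of 5, each of the 10 markers was examined in each of 4 groups for a library far from the others of its group, and 2 of these 40 sets held one, where chance alone gives about 1 in 20. Cd68 stood at 1.59 CPM in labelled knockout kidney 5, while the other labelled knockout kidneys had 2.67 to 3.11 CPM. Lyz2 stood at 63.0 CPM in labelled knockout kidney 2, while the other labelled knockout kidneys had 13.03 to 25.3 CPM.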

How the results depend on the processing

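Direction and side of the threshold were kept by Mpeg1 in liver under all 21 alternatives and by 6 of the 8 markers called between wild-type tissues under all 20. Labelled knockout livers 4 and 5 held the highest Mpeg1 of their group, so the fit without them is no independent check of that gene. The count of markers called in kidney was 0, but 1 with DESeq2, 3 with limma voom and 1 with all 20 libraries in 1 fit, and 0 without any 1 library. In liver it was 2, but 5 with DESeq2, 4 with library size alone, 3 with no filter beyond 1 count, where Ctss had an adjusted p of 0.0477, 4 with limma voom, 1 with all 20 libraries, 4 without labelled knockout livers 4 and 5, and 2 to 4 without 1 library. Between wild-type tissues 8 became 7 with library size alone. For the difference of genotype effects it was 0 under all 31 alternatives. The cause was not tested.

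Titles share the numbers 1, 3, 4 and 5 between genotypes. Correlations of deviations between libraries of equal number were 0.04 to 0.17 in kidney and -0.04 to 0.02 in liver. Of 8 kidneys 4 correlated best with their own number, and of 8 livers 0 did. So few libraries cannot decide whether equal numbers pair the samples in either tissue. With the number as a replicate block 0 markers were called in kidney (902 genes against 373) and 1 in liver (307 genes against 893), where Adgre1 had an adjusted p of 0.0670. The block by mouse changed no call of a marker.

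Estimates near zero changed sign. In kidney Csf1r was 0.058 without wild-type kidneys 1 and 3, and Lyz2 was 0.0044 with DESeq2, 0.0030 with its size factors, 0.026 on log2 FPKM and -0.57 to 0.15 without 1 library. In liver Cd68 was -0.29 to 0.053 without 1 library, and Itgam was -0.031 with library size alone, -0.26 with the block, -0.021 without labelled knockout livers 4 and 5 and -0.11 to 0.19 without 1 library. For the difference, Lyz2 was -0.15 to 0.57 without 1 library. Aif1 was -0.012 with a mean of at least 1 CPM, -0.036 with voom, -0.17 without wild-type kidneys 1 and 3, and -0.16 to 0.16 without 1 library. Ctss was 0.037 with no filter, 0.0080 on log2 FPKM, 0.0011 with the block by mouse, 0.15 without labelled knockout livers 4 and 5, and -0.21 to 0.12 without 1 library. Laptm5 was 0.0040 on log2 FPKM, 0.21 without labelled knockout livers 4 and 5, and -0.302 to 0.037 without 1 library. Between wild-type tissues Csf1r was -0.16 with voom, -0.0077 with the block by mouse, -0.29 without wild-type kidneys 1 and 3, and -0.19 to 0.14 without 1 library. Over these alternatives 99 to 2151 genes were called in kidney, 307 to 1408 in liver, 165 to 681 for the difference and 7226 to 11421 between tissues. Itgam was not tested with the filter at a mean of 1 CPM. Depth limits Itgam, with 4 to 41 counts per kidney and 10 to 23 per liver, and Fcgr1 in kidney, with 14 to 87 counts.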
